A study of Mus musculus with 18 samples.

Results

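The Cyp2c genes of mouse liver encode cytochromes P450, and 10 of them are described here: Cyp2c23, Cyp2c29, Cyp2c37, Cyp2c40, Cyp2c50, Cyp2c54, Cyp2c67, Cyp2c68, Cyp2c69 and Cyp2c70. They were picked by gene name from the 40840 genes of the deposited count tables, with earlier results of these data known. A total of 15 genes there are named Cyp2c and a number. The livers were those of female C57BL/6 mice without ovaries (ovariectomized). DIO mice were wild type and were fed 0.2% cholesterol and fat as 45% of the calories, and leptin-deficient ob/ob mice ate a normal diet. In each model, mice received PaPE-1 (300 µg per kg per day), E2 (5 µg per kg per day) or vehicle from an osmotic minipump for 6 weeks, so the doses of the 2 ligands differ. PaPE-1 is a synthetic, pathway preferential estrogen that binds estrogen receptor α less tightly than estradiol (E2) does. Ages were not given in the sources used here. Each of the 6 groups has 3 libraries, although the sample records speak of 2 samples per group. The p-values set differences between groups against the spread between libraries within groups, estimated over all groups of a fit. DIO and ob/ob mice differ in genotype and diet and their libraries stand in separate tables, which cannot be told apart, so levels in the 2 models are given side by side with no test.

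Cytochromes P450 of this family sit in the endoplasmic reticulum of hepatocytes and insert oxygen into drugs, steroids and fatty acids, with electrons passed on by the reductase Por. Several of them turn arachidonic acid into epoxides or hydroxy acids. Cyp2c70 hydroxylates chenodeoxycholic acid on the route to muricholic acids, the bile acids that mice have and humans mostly lack. In rodents many Cyp2c genes differ between the sexes, through the sex-specific pattern of pituitary growth hormone, and Cyp2c40 and Cyp2c69 are known as female-biased genes in mouse liver. Cyp2c29 is a well-known target of the nuclear receptor CAR (Nr1i3).

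On GRCm39, 9 of the 10 genes lay in a tandem cluster of 900 kb on chromosome 19, between 39275488 and 40175730. Cyp2c23 lay 3.82 Mb farther along, from 43993461 to 44017695. The coding sequences of Cyp2c40, Cyp2c67, Cyp2c68 and Cyp2c69 were 96.5% to 98.1% identical to each other, and those of Cyp2c37, Cyp2c50 and Cyp2c54 were 95.1% to 96.1% identical. Cyp2c29 reached at most 83.2% identity to another member, Cyp2c70 at most 69.3% and Cyp2c23 at most 66.1%. The deposited counts left out reads that map to several places, so this likeness sets how much of each mRNA could be counted. Of the 101-base windows of the Cyp2c40 transcript, 43.7% were also found in a transcript of another gene, and the share was 36.0% for Cyp2c69, 23.3% for Cyp2c67 and 19.6% for Cyp2c68. It was 9.17% for Cyp2c50, 7.41% for Cyp2c54 and 4.52% for Cyp2c37. No window of Cyp2c29, Cyp2c70 or Cyp2c23 was shared. Levels of the first 4 genes are therefore based on the part of the mRNA that tells them apart, and a read with a sequence difference could still have been given to the wrong copy.

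RefSeq promoters (GRCm38.p6) were available for 8 members. Those of the 4 near-identical genes and of Cyp2c70 are printed because 4 of these 5 genes are the members that changed with E2 in ob/ob liver. Each line gives the 250 bases before the annotated start, 5′ to 3′ on the strand of the gene, and capitals mark the letters CAAAGTCCA, a motif of the HNF4 type.
Cyp2c40: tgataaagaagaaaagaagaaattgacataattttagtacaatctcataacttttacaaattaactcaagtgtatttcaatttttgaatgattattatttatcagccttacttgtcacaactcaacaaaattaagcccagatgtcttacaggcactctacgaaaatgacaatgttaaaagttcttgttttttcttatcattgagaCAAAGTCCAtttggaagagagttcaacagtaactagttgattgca
Cyp2c69: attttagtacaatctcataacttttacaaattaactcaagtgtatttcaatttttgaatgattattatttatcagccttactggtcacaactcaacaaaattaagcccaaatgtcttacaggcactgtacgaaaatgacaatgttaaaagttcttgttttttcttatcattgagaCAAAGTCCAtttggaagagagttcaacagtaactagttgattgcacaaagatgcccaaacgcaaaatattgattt
Cyp2c68: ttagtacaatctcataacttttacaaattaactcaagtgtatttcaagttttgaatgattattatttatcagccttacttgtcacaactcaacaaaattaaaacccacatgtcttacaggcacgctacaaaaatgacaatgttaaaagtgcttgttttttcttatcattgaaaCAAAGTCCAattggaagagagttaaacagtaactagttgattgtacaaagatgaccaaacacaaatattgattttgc
Cyp2c67: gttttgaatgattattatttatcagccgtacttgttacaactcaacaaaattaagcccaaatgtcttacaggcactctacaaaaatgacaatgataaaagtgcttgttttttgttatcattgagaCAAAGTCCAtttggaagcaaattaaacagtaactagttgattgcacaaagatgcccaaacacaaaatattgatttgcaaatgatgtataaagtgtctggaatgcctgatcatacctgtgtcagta
Cyp2c70: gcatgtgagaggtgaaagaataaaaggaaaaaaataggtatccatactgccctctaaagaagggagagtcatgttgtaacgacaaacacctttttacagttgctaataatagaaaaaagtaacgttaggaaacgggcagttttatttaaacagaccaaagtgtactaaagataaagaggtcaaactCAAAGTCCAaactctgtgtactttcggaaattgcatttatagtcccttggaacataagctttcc
These windows lie at chr19:39812815-39813064 for Cyp2c40, chr19:39886770-39887019 for Cyp2c69, chr19:39741102-39741351 for Cyp2c68, chr19:39649043-39649292 for Cyp2c67 and chr19:40187287-40187536 for Cyp2c70, all on the minus strand of GRCm38.p6. Identity was taken from local alignments of the whole RefSeq entries, which run past the start and are longer than the windows printed. Cyp2c40 and Cyp2c69 matched at 267 of 270 aligned positions (98.9%), and Cyp2c40 matched Cyp2c68 at 93.3% and Cyp2c67 at 93.6%. The printed motif, searched on both strands, was present in 5 of the 8 member promoters and in 0.384% of 32851 RefSeq promoter windows of the same length. The 4 near-identical genes share it through their common sequence, so they are not 4 separate cases. The complete estrogen response element GGTCANNNTGACC was in 0 of 8 member windows (0.0639% of all), and its single arm AGGTCA was in those of Cyp2c29 and Cyp2c70 (14.02% of all). The STAT5-type letters TTCNNNGAA were in 0 of 8 (7.02% of all), the C/EBP-type letters TTGCNNAA in 3 of 8 (9.56%) and the HNF6-type letters ATTGAT in 5 of 8 (6.72%). Cyp2c67, which did not pass the test with E2, carried the printed motif as well as Cyp2c40, Cyp2c69, Cyp2c68 and Cyp2c70, which did in ob/ob liver.

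DIO libraries held 16651616 to 21703791 counts each, and ob/ob libraries held 10470665 to 17021370. The 10 genes took 0.447% to 0.751% of all counts in DIO libraries and 0.0941% to 0.222% in ob/ob libraries. All 10 had enough counts to be tested in both models, with 9 to 35167 counts per library. All 8 hepatocyte markers were detected in every group. In ob/ob liver their summed level was 91730 to 111968 CPM with PaPE-1, 137930 to 153612 CPM with E2 and 83545 to 111010 CPM with vehicle. In DIO liver it was 102409 to 124566 CPM with PaPE-1, 95069 to 123129 CPM with E2 and 81091 to 93483 CPM with vehicle. Bulk RNA cannot tell fewer cells of a type from less RNA per cell. Members tended to be high or low together within a library. WE14, replicate 2 of DIO mice given E2, had the lowest value of its group for 8 of the 10 members, and its removal changed many calls in DIO liver, given below. Among ob/ob libraries, L13 (vehicle) had the highest value of its group for 9 of 10 members, L1 (E2) for 10 of 10 and L6 (PaPE-1) for 8 of 10, and L8 (vehicle) and L19 (E2) had the lowest for 8 of 10 each.

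Values are listed in the order WP11, WP12 and WP24 (PaPE-1), WE3, WE14 and WE18 (E2) and WV7, WV8 and WV9 (vehicle) for DIO mice, and L5, L6 and L16 (PaPE-1), L1, L12 and L19 (E2) and L3, L8 and L13 (vehicle) for ob/ob mice. CPM is each read count relative to the TMM-adjusted total of its library, and levels of different genes are compared per kilobase of the exon length in the tables. For Cyp2c50 this length was 2932 bases while its transcript had 1812, so its place in the order depends on the length used. The length also includes the windows shared with other genes, so levels per kb of Cyp2c40, Cyp2c67, Cyp2c68 and Cyp2c69 may be understated. Cyp2c29 was the most abundant member in all 6 groups, and no library of the next gene reached its lowest library in any of them. In vehicle livers it stood at 767 ± 110 CPM per kb in DIO mice and 276 ± 147 CPM per kb in ob/ob mice (SD, n = 3 each). By the exon length, Cyp2c37 and Cyp2c70 came next in DIO vehicle livers, with 393 ± 88.1 and 383 ± 58.8 CPM per kb and overlapping ranges. Cyp2c70 and Cyp2c68 came next in ob/ob vehicle livers, with 118 ± 38.0 and 113 ± 19.8 CPM per kb, again with overlapping ranges. The lower end of the order was set out differently: Cyp2c23, Cyp2c67 and Cyp2c54 were the 3 lowest in DIO vehicle livers, at 87.6, 80.4 and 66.7 CPM per kb with overlapping ranges, whereas Cyp2c40, Cyp2c54 and Cyp2c69 were the 3 lowest in ob/ob vehicle livers, at 6.01, 1.64 and 1.02 CPM per kb, with overlap between Cyp2c54 and Cyp2c69 alone. With E2 in ob/ob mice, Cyp2c40 held the fourth place at 92.0 ± 11.8 CPM per kb and overlapped with Cyp2c37 below it but not with Cyp2c67, the next.

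**Figure D1:**
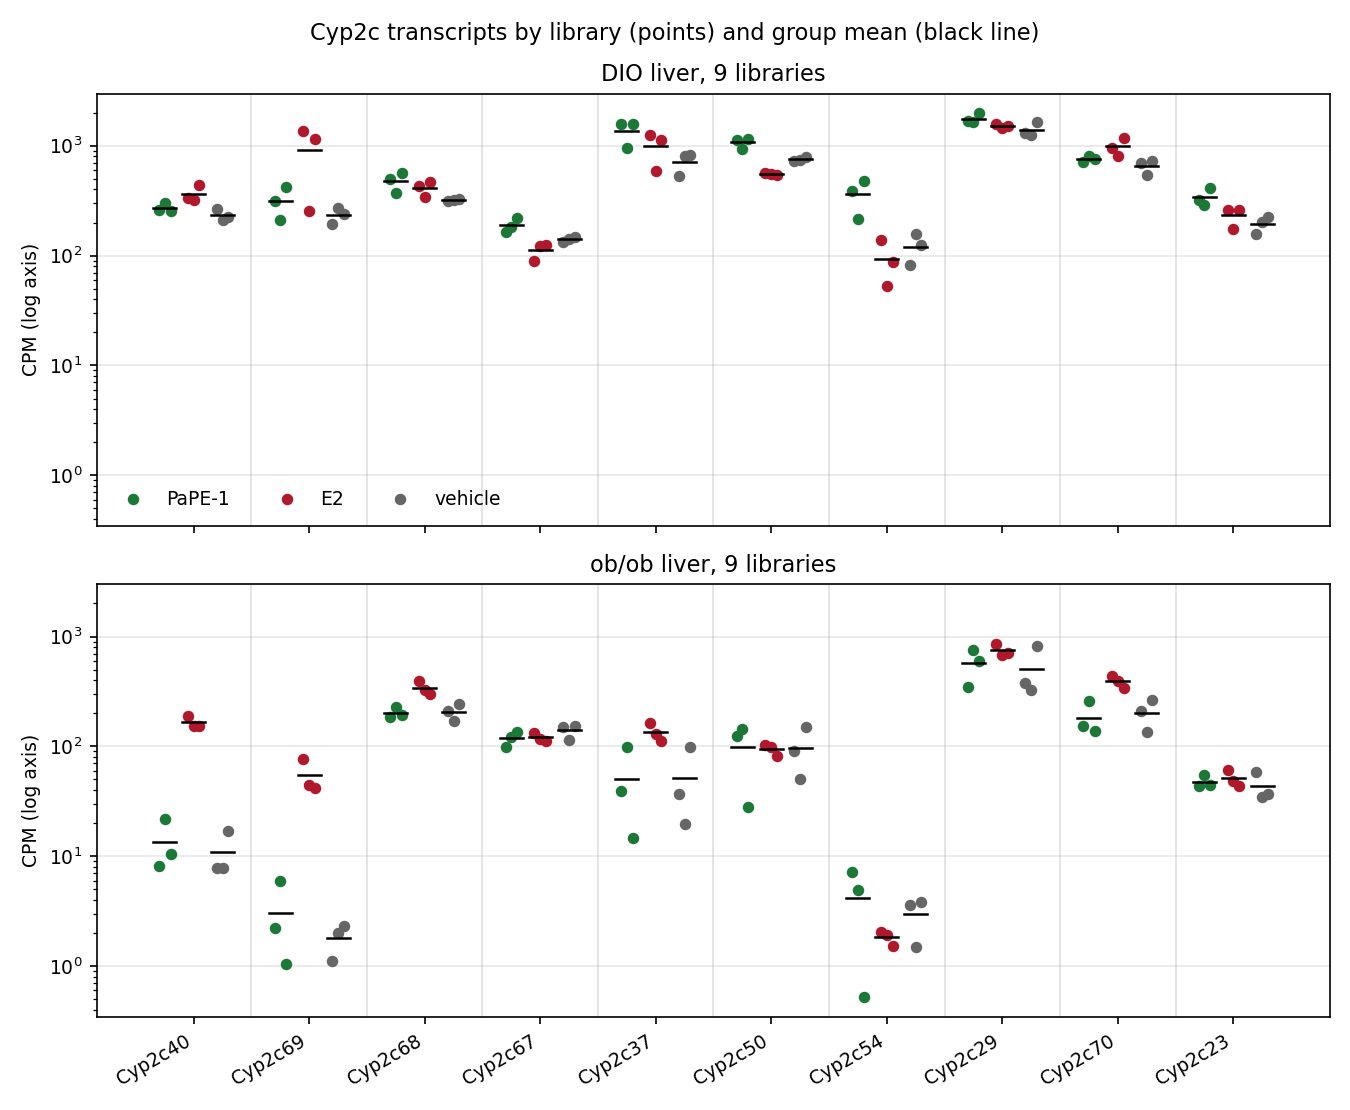
CPM of the 10 Cyp2c genes (log axis) in each of the 18 libraries, DIO liver above and ob/ob liver below, with PaPE-1, E2 and vehicle from left to right for each gene and group means as black lines. In ob/ob liver the E2 libraries of Cyp2c40 (153 to 190 CPM) and Cyp2c69 (41.6 to 77.4 CPM) stand clear of all others, and in DIO liver 1 E2 library of Cyp2c69 sits at 254 CPM below the other 2.

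In ob/ob liver, E2 raised 4 of the 10 genes over vehicle and lowered 0. Cyp2c40 and Cyp2c69 rose by far more than the others, and Cyp2c68 and Cyp2c70 rose by less than 2-fold. Cyp2c67, near-identical to Cyp2c40 in coding sequence, did not pass the test. Of the 13433 genes tested, 9.81% were higher and 22.1% changed in either direction at an adjusted p under 0.05 (edgeR's quasi-likelihood test, Benjamini-Hochberg adjustment). The median log2 fold change was 0.64 over the 10 members and 0.01 over all genes. For 5 of the 10 members every E2 library lay above every vehicle library, which held for 20.7% of all genes.

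Cyp2c40, which in mouse hydroxylates arachidonic acid, had 190, 153 and 154 CPM with E2, against 7.78, 7.86 and 16.8 CPM with vehicle. All E2 libraries lay far above all vehicle libraries, and the log2 fold change was 3.92 (SE 0.45, adjusted p = 0.00355, 15.1-fold). Cyp2c69 had 77.4, 44.5 and 41.6 CPM with E2, against 1.10, 2.01 and 2.30 CPM with vehicle. The vehicle values rest on only 17, 23 and 39 counts, and the log2 fold change was 4.91 (SE 0.60, adjusted p = 0.00435). Cyp2c68 had 394, 326 and 300 CPM with E2, against 211, 169 and 241 CPM with vehicle. Its groups did not overlap, and the log2 fold change was 0.71 (SE 0.15, adjusted p = 0.00761). Cyp2c70, the muricholic acid enzyme, had 435, 393 and 342 CPM with E2, against 210, 134 and 263 CPM with vehicle. Its groups did not overlap either, and the log2 fold change was 0.95 (SE 0.28, adjusted p = 0.0390). The calls of Cyp2c40, Cyp2c69 and Cyp2c68 were made under each of the 16 alternatives tried for this comparison. That of Cyp2c70 was lost in 5 of the 9 fits that left out 1 library (L1, L12, L19, L3 or L8), where its adjusted p was 0.0697 to 0.124. It was also lost without a filter on low counts (adjusted p = 0.135) and with the gene length trend removed (adjusted p = 0.0935).

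The other 6 members did not pass the test with E2 in ob/ob liver. Cyp2c67 had 132, 118 and 112 CPM with E2 and 149, 115 and 154 CPM with vehicle, with a 95% interval of its log2 fold change of -0.52 to 0.10. Among the members whose vehicle libraries spread widely, Cyp2c37 had 165, 130 and 113 CPM with E2, against 36.9, 19.5 and 99.2 CPM with vehicle. All E2 libraries lay above all vehicle libraries, yet the log2 fold change of 1.38 had an SE of 0.81 (adjusted p = 0.269). Cyp2c29, a CAR target, had 852, 674 and 714 CPM with E2, against 375, 326 and 814 CPM with vehicle, where L13 lay among the E2 libraries. Without L13 its log2 fold change was 1.09 and it passed the test (adjusted p = 0.0326), as did 1725 of all genes. Cyp2c29 passed in only 1 of the 9 fits without 1 library and in 0 of 7 other settings. Cyp2c50, which with Cyp2c37 and Cyp2c54 metabolises arachidonic acid, had 102, 98.7 and 81.3 CPM with E2, against 90.7, 50.9 and 150 CPM with vehicle, so the vehicle range enclosed that of E2. Cyp2c54 was low in all ob/ob livers, at 0.519 to 7.18 CPM. Cyp2c23, an epoxygenase outside the cluster, had 61.1, 48.5 and 43.5 CPM with E2, against 58.2, 34.5 and 37.2 CPM with vehicle. Without L3 its log2 fold change was 0.51 and it passed the test (adjusted p = 0.0467), as did 2161 of all genes. Cyp2c23, too, passed in only 1 of 9 fits without 1 library and in 0 of 7 other settings.

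Markers of other cells moved with E2 in the same livers, where 22.1% of all genes changed in either direction. All 7 neutrophil and myeloid precursor markers rose, with a summed level of 88.2 to 346 CPM with E2 and 5.12 to 6.03 CPM with vehicle. Of 8 liver endothelial cell markers 7 rose, with sums of 271 to 342 CPM with E2 and 154 to 175 CPM with vehicle, and of 6 Kupffer cell markers 3 rose (356 to 499 CPM with E2, 220 to 304 CPM with vehicle). Of 4 proliferating cell markers 3 fell, with sums of 15.8 to 17.3 CPM with E2 and 26.4 to 48.4 CPM with vehicle. Of 8 hepatocyte markers 4 rose and 1 fell, 1 of 4 lymphocyte markers tested rose, and 0 markers of stellate cells, cholangiocytes or erythroid cells passed. No marker of these lists was at 0 throughout an ob/ob group. The part of cell composition in the Cyp2c changes was not tested.

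PaPE-1 changed 0 of the 10 genes against vehicle in ob/ob liver, where 0% of the 13433 genes passed the test with edgeR, and 0 genes with DESeq2 or limma voom. At an unadjusted p under 0.05 there were 0 members, against 2.65% of all genes, and 0 members had groups that did not overlap, against 5.78% of all genes. Cyp2c40 had 8.18, 21.6 and 10.4 CPM with PaPE-1, against 7.78, 7.86 and 16.8 CPM with vehicle, and Cyp2c69 had 2.21, 5.92 and 1.04 CPM with PaPE-1, against 1.10, 2.01 and 2.30 CPM with vehicle. The 95% intervals of the log2 fold changes were narrow for Cyp2c67 (-0.54 to 0.07) and Cyp2c68 (-0.36 to 0.29). They were wide for Cyp2c37 (-2.00 to 1.89), Cyp2c50 (-1.49 to 1.52), Cyp2c54 (-1.20 to 2.12) and Cyp2c69 (-0.95 to 2.35). Those of Cyp2c40 (-0.74 to 1.30) and Cyp2c29 (-0.74 to 1.09) were wide too, so changes within these intervals could not be seen. The PaPE-1 library L16 had the lowest Cyp2c37, Cyp2c50 and Cyp2c54 of all 9 ob/ob libraries, at 14.5, 28.1 and 0.519 CPM.

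Set against E2 in ob/ob liver, at different doses, PaPE-1 livers had lower levels of 4 members and higher levels of 0. The 4 were those that E2 raised over vehicle, with the same E2 libraries in both comparisons. Of all genes 7.45% were lower and 17.4% differed in either direction. The log2 fold changes were -3.64 for Cyp2c40 (SE 0.44, adjusted p = 0.00478), -4.21 for Cyp2c69 (SE 0.56, adjusted p = 0.00632), -0.75 for Cyp2c68 (SE 0.15, adjusted p = 0.00783) and -1.09 for Cyp2c70 (SE 0.28, adjusted p = 0.0285). That of Cyp2c70 was again lost in 5 of 9 fits without 1 library (L1, L12, L19, L5 or L16; adjusted p of 0.0573 to 0.109). It was lost as well without a filter (0.0996) and with the length trend removed (0.0604). Cyp2c54 was higher with PaPE-1 only when L16 was left out, at a log2 fold change of 1.73 (adjusted p = 0.0200). Without the PaPE-1 library L6 the value of Cyp2c69 was -5.08 (adjusted p = 0.00116). Markers moved in this comparison too: lower with PaPE-1 were 8 of 8 endothelial markers (sums of 140 to 176 CPM with PaPE-1 and 271 to 342 CPM with E2), 4 of 7 neutrophil (2.77 to 60.2 CPM with PaPE-1 and 88.2 to 346 CPM with E2), 4 of 8 hepatocyte, 2 of 6 Kupffer cell and 2 of 4 lymphocyte markers, and 1 of 3 erythroid markers was higher. Their part in the Cyp2c differences was not tested.

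**Figure D2:**
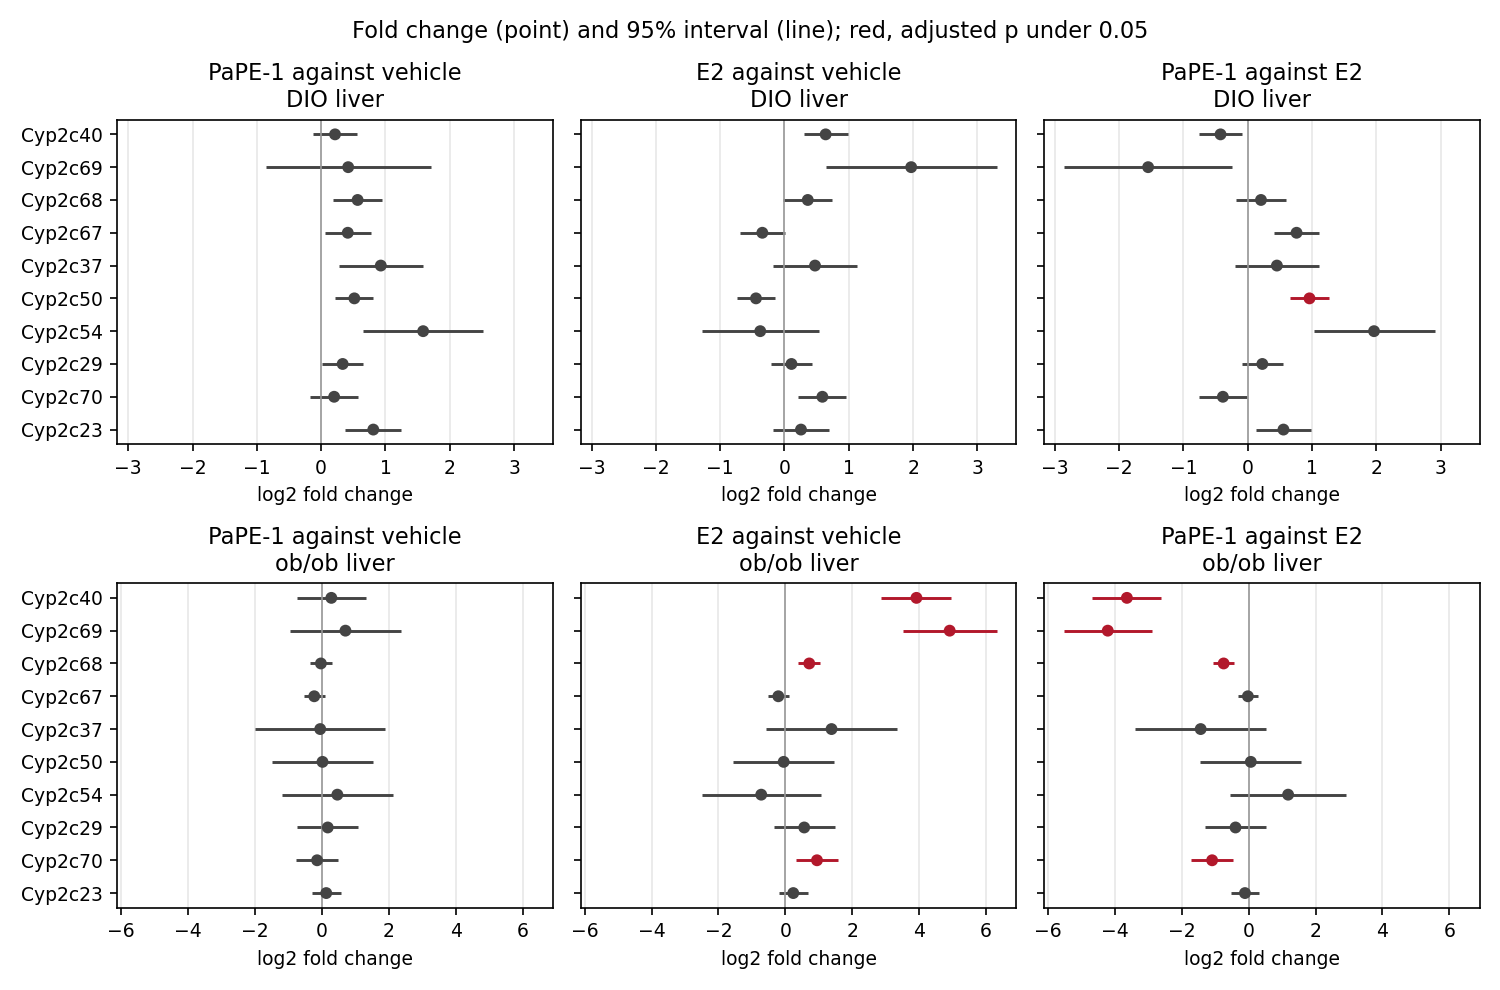
Log2 fold changes of the 10 genes (points) with their 95% intervals (lines) for 3 comparisons in DIO liver (above) and ob/ob liver (below), red where the adjusted p was under 0.05. In ob/ob liver Cyp2c40, Cyp2c69, Cyp2c68 and Cyp2c70 are red with E2 against vehicle and with PaPE-1 against E2. In DIO liver only Cyp2c50 is red, with PaPE-1 against E2, and all 10 points lie above 0 for PaPE-1 against vehicle.

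In DIO liver, E2 changed 0 of the 10 genes at the threshold, where 0% of 13884 genes passed with edgeR and 22 passed with DESeq2, none of them a member. At an unadjusted p under 0.05, 3 members were higher (Cyp2c69, Cyp2c40 and Cyp2c70) and 1 was lower (Cyp2c50), against 5.22% of all genes in either direction. Groups did not overlap for 5 members, against 10.1% of all genes. Cyp2c69 had 1354, 254 and 1155 CPM with E2, against 194, 272 and 240 CPM with vehicle. The 254 CPM of library WE14 lay among the vehicle values and the other 2 libraries lay far above them. The log2 fold change was 1.97 (SE 0.57, adjusted p = 0.838), and without WE14 it was 2.42 and passed the test (adjusted p = 0.00116). Cyp2c40 had 337, 322 and 434 CPM with E2, against 263, 213 and 226 CPM with vehicle. Its groups did not overlap, and the log2 fold change was 0.64 (SE 0.16, adjusted p = 0.726; 0.0731 without WE14). Cyp2c70 had 961, 808 and 1187 CPM with E2, against 699, 540 and 726 CPM with vehicle, and the log2 fold change stood at 0.59 (SE 0.17, adjusted p = 0.838; 0.0881 without WE14). Cyp2c50 had 563, 548 and 543 CPM with E2, against 723, 736 and 789 CPM with vehicle, and the log2 fold change stood at -0.44 (SE 0.14, adjusted p = 0.838; 0.294 without WE14). The E2 values of Cyp2c50 agreed closely in all 3 libraries, WE14 included. Cyp2c37 had 1265, 590 and 1136 CPM with E2, against 532, 805 and 815 CPM with vehicle, with WE14 again the low one, and the log2 fold change was 0.47 (0.74 without WE14, adjusted p = 0.239). Without WE14, 133 of all genes passed in this comparison.

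PaPE-1 against vehicle in DIO liver changed 0 of the 10 genes at the threshold, and 0% of all genes passed with edgeR and 0 with limma voom. All 10 fold changes were above 0, with a median log2 fold change of 0.47, against -0.03 over all genes. At an unadjusted p under 0.05, 7 members were higher and 0 lower, against 21.1% of all genes in either direction. Every PaPE-1 library lay above every vehicle library for 7 members, against 16.4% of all genes. DESeq2 called 757 genes in this comparison, 5 of them members and all 5 higher: Cyp2c54, Cyp2c50, Cyp2c23, Cyp2c37 and Cyp2c68. In a fit of the 6 libraries compared alone, edgeR called 773 genes (467 higher and 306 lower), with Cyp2c23, Cyp2c37 and Cyp2c54 among them. Leaving out WE14 or WE3, E2 libraries that share the filter, the scaling and the estimate of spread, gave 193 and 611 calls over all genes. Each time 1 member was among them, Cyp2c23 (adjusted p = 0.0477 without WE14 and 0.0445 without WE3).

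Cyp2c54 had the largest fold change, with 391, 214 and 480 CPM with PaPE-1, against 81.3, 156 and 124 CPM with vehicle. The groups did not overlap, and the log2 fold change was 1.59 (SE 0.41, adjusted p = 0.0993). Cyp2c37 had 1572, 955 and 1566 CPM with PaPE-1, against 532, 805 and 815 CPM with vehicle, and the log2 fold change stood at 0.93 (SE 0.30, adjusted p = 0.128). Cyp2c50 had 1137, 927 and 1151 CPM with PaPE-1, against 723, 736 and 789 CPM with vehicle, and the log2 fold change stood at 0.52 (SE 0.14, adjusted p = 0.0855). In these 3 closely similar genes the PaPE-1 library WP12 was the lowest of its group each time. Cyp2c23 had 319, 291 and 416 CPM with PaPE-1, against 159, 203 and 224 CPM with vehicle, and the log2 fold change stood at 0.81 (SE 0.20, adjusted p = 0.0770). Cyp2c68 had 494, 369 and 564 CPM with PaPE-1, against 313, 322 and 328 CPM with vehicle, and the log2 fold change stood at 0.57 (SE 0.18, adjusted p = 0.116). Cyp2c67 and Cyp2c29 also had groups that did not overlap, at log2 fold changes of 0.41 and 0.33 (adjusted p of 0.181 and 0.221). Cyp2c69, Cyp2c40 and Cyp2c70 had log2 fold changes of 0.42, 0.22 and 0.20 with overlapping groups. Of the 4 genes raised by E2 in ob/ob liver, Cyp2c68 alone thus had groups that did not overlap with PaPE-1 in DIO liver. The hepatocyte marker sums given above did not overlap between PaPE-1 and vehicle in DIO liver either, while 0 of the 8 markers passed the test, and their part in the Cyp2c values was not tested.

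PaPE-1 against E2 in DIO liver, again at different doses, gave 1 call among the members, Cyp2c50, which was higher with PaPE-1 (1137, 927 and 1151 CPM) than with E2 (563, 548 and 543 CPM). Of 13884 genes 0.0216% were higher and 0.036% differed in either direction. The log2 fold change was 0.96 (SE 0.14, adjusted p = 0.0325) and lay between 0.91 and 1.05 when 1 library was left out. The adjusted p was over 0.05 in 8 of these 9 fits, up to 0.253, and was 0.0114 without WE14. It was 0.0722 with limma voom, 0.0552 with the length trend removed and 0.155 in a fit of the 6 libraries alone. Cyp2c54 had the same direction with non-overlapping groups, at 391, 214 and 480 CPM with PaPE-1 and 138, 53.4 and 86.9 CPM with E2 (log2 fold change 1.96, SE 0.42, adjusted p = 0.175). So did Cyp2c67, at 163, 180 and 222 CPM with PaPE-1 and 88.8, 121 and 124 CPM with E2 (0.76, SE 0.16, adjusted p = 0.163). Cyp2c23 (0.55, adjusted p = 0.213) and Cyp2c29 (0.23, adjusted p = 0.434) were also higher without overlap. Cyp2c69 had the opposite sign with overlapping groups, at 314, 210 and 420 CPM with PaPE-1 and 1354, 254 and 1155 CPM with E2 (-1.55, SE 0.56, adjusted p = 0.243). Cyp2c40 (-0.42, adjusted p = 0.222) and Cyp2c70 (-0.39, adjusted p = 0.278) were lower too, without overlap. Of the 13884 genes, 1375 lay above and 1148 below without overlap. Without WE14, 796 of all genes passed (361 higher and 435 lower), against 5 with it. They held 4 members, and these were Cyp2c50, Cyp2c54 (adjusted p = 0.0493) and Cyp2c67 (0.0317), higher with PaPE-1, and Cyp2c69 (0.00419), lower with PaPE-1.

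On the log2 scale, the effect of E2 differed between the models for 1 member. The log2 fold change of Cyp2c40 with E2 was lower in DIO liver than in ob/ob liver by an interaction of -3.27 (SE 0.44, 95% interval -4.20 to -2.34, adjusted p = 0.0207, edgeR over 18 libraries). Only 0.0141% of the 14171 genes tested passed for this interaction, 1 in each direction. Cyp2c69 had an interaction of -2.94 (SE 0.89, adjusted p = 0.150, and 0.0539 without WE14). DESeq2 called it (adjusted p = 0.0282), among 338 of all genes that it called for this interaction. The interaction of Cyp2c40 lost its call in 4 of 18 fits without 1 library (WE18, WV9, L8 or L12; adjusted p of 0.0525 to 0.0832), with values of -3.75 to -3.09 in all 18. For Cyp2c68, Cyp2c70 and Cyp2c50 the interactions of E2 were -0.34, -0.34 and -0.38, with intervals that spanned 0, and -0.22, -0.22 and -0.38 without WE14, where 831 of all genes passed. The interaction of PaPE-1 passed for 0 members and for 0% of all genes with edgeR, while DESeq2 called 115 genes, 0 of them members. At an unadjusted p under 0.05 it was higher in DIO liver for 3 members (Cyp2c23, Cyp2c67 and Cyp2c68) and lower for 0, against 12.1% of all genes in either direction. Levels of Cyp2c40 and Cyp2c69 in vehicle livers were 234 ± 26.2 and 235 ± 39.3 CPM in DIO mice and 10.8 ± 5.21 and 1.80 ± 0.626 CPM in ob/ob mice (SD, n = 3 each). With E2 they were 364 ± 61.3 and 921 ± 586 CPM in DIO mice and 166 ± 21.2 and 54.5 ± 19.9 CPM in ob/ob mice. The interaction compares ratios to these unlike vehicle levels, so it does not say in which model the CPM rose more.

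Because reads of near-identical genes can be given to the wrong copy, their counts were also summed. The sum does not restore reads that map to several places, which were left out of the counts. Together, Cyp2c40, Cyp2c67, Cyp2c68 and Cyp2c69 had 794, 640 and 608 CPM with E2 in ob/ob liver, against 369, 294 and 414 CPM with vehicle, a ratio of means of 1.90. The sum did not overlap between the groups, and its ratio was far below those of Cyp2c40 and Cyp2c69 alone, since Cyp2c68 and Cyp2c67 held most of the counts. With PaPE-1 the sum was 296, 376 and 341 CPM, a ratio to vehicle of 0.940. In DIO liver the sum was 2207, 1035 and 2186 CPM with E2, against 903, 949 and 941 CPM with vehicle, a ratio of 1.94, or 2.36 without WE14, a setting added after the data were seen. The Cyp2c69 counts made up most of that difference in WE3 and WE18 while WE14 had 254 CPM of Cyp2c69. With PaPE-1 the DIO sum was 1231, 1058 and 1460 CPM, a ratio to vehicle of 1.34 with no overlap.

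**Figure D3:**
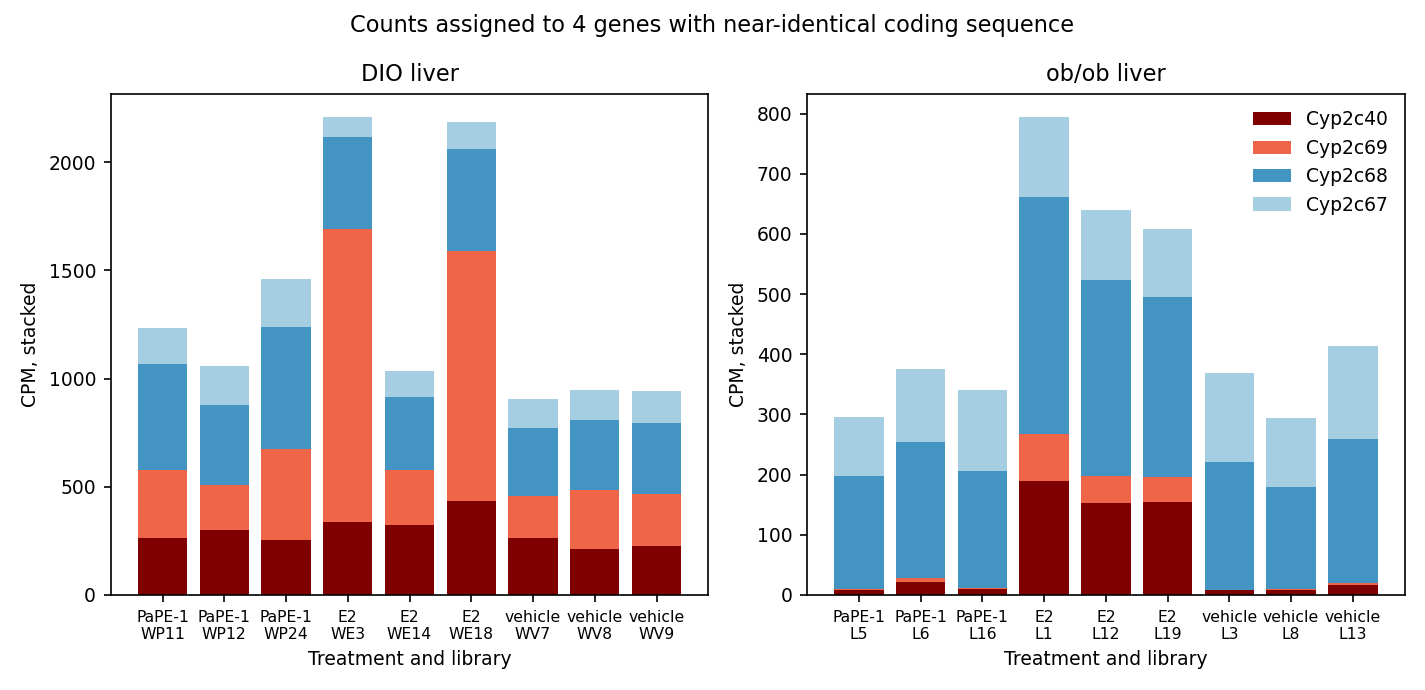
CPM of Cyp2c40, Cyp2c69, Cyp2c68 and Cyp2c67 stacked for each library, from PaPE-1 through E2 to vehicle, in DIO liver (left) and ob/ob liver (right, with its own axis). Cyp2c69 is the tallest part in 2 of the 3 DIO E2 libraries, at 1354 and 1155 CPM, and Cyp2c40 becomes visible in ob/ob liver with E2.

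The sum of Cyp2c37, Cyp2c50 and Cyp2c54 in DIO liver was 3100, 2095 and 3197 CPM with PaPE-1 and 1965, 1192 and 1765 CPM with E2, against 1336, 1697 and 1728 CPM with vehicle. Its ratio to vehicle was 1.76 with PaPE-1, with no overlap, and 1.03 with E2, or 1.18 without WE14. In ob/ob liver this sum was 169, 247 and 43.1 CPM with PaPE-1 and 269, 231 and 196 CPM with E2, against 131, 71.9 and 253 CPM with vehicle, and all 3 ranges overlapped. All 10 genes together had a ratio to vehicle of 1.45 with PaPE-1 and 1.30 with E2 in DIO liver (1.46 with E2 without WE14, where no E2 library overlapped with vehicle), and of 1.02 with PaPE-1 and 1.66 with E2 in ob/ob liver. Of these, the ranges of PaPE-1 in DIO liver and of E2 in ob/ob liver did not overlap with vehicle.

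Members with near-identical sequence did not always vary together. Over the 18 libraries, each set against the mean of its model on the log2 CPM scale, Cyp2c40 and Cyp2c69 had a Pearson r of 0.93 and Cyp2c40 and Cyp2c68 one of 0.78. For these pairs r was 0.68 and 0.34 over the 9 DIO libraries, and 0.98 and 0.95 over the 9 ob/ob libraries. Cyp2c67, whose coding sequence is 97.7% identical to those of Cyp2c40 and Cyp2c69, had an r of -0.12 and -0.29 with them. Cyp2c40 and Cyp2c70, at 66.3% identity, had an r of 0.87, with 0.94 over the 9 DIO libraries and 0.91 over the 9 ob/ob libraries. Cyp2c50 and Cyp2c54 had an r of 0.85 (0.89 in DIO and 0.88 in ob/ob libraries), whereas Cyp2c40 and Cyp2c50 had one of 0.15 (-0.58 in DIO and 0.22 in ob/ob libraries). These values describe libraries that share treatments and, for near-identical genes, possibly reads.

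**Figure D4:**
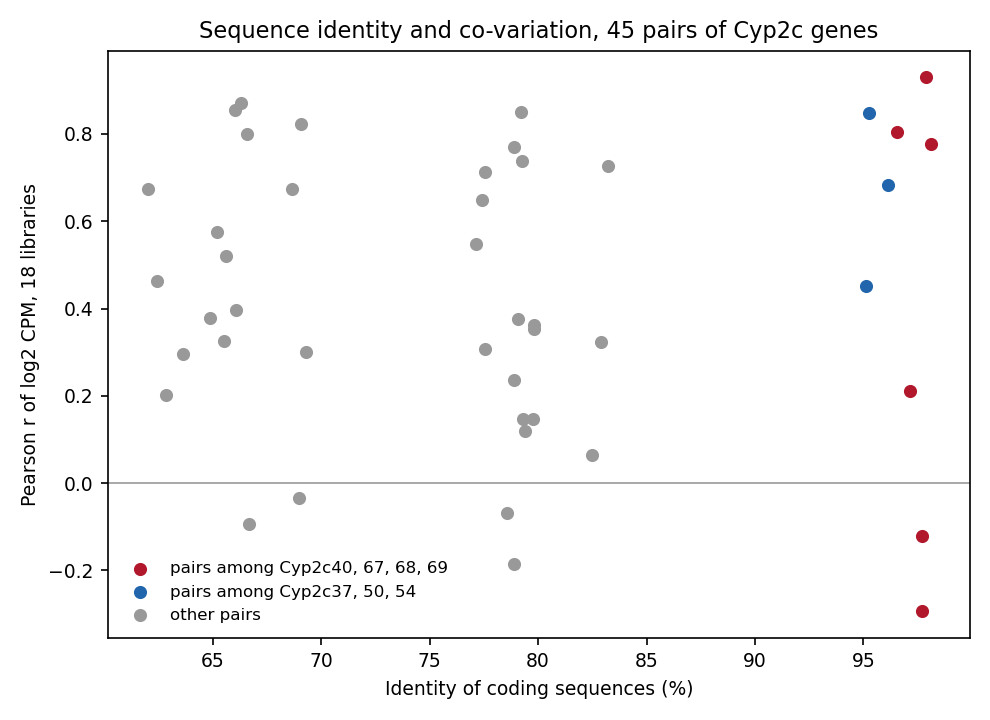
Identity of coding sequences (percent, horizontal) against the Pearson r of log2 CPM over 18 libraries (vertical) for the 45 pairs of members, with pairs among Cyp2c40, Cyp2c67, Cyp2c68 and Cyp2c69 in red and pairs among Cyp2c37, Cyp2c50 and Cyp2c54 in blue. The red pairs reach from an r of -0.29 to one of 0.93 at an identity of 96.5% or more.

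Outside the family, the gene most like each member over the same 18 libraries was found among 12024 named genes. Cyp2c68 was most like Pon1 (paraoxonase, r = 0.94), Cyp2c70 most like the sialyltransferase gene St3gal6 (0.94), Cyp2c40 most like the hepcidin gene Hamp2 (0.93) and Cyp2c69 most like Eci3 (0.93), an isomerase of fatty acid oxidation. Cyp2c67 was most like Ephx2 (0.87), the soluble epoxide hydrolase, and Cyp2c29 most like Hsd11b1 (0.85), which activates glucocorticoids. Cyp2c37 was most like Limd2 (0.91), Cyp2c23 like Pdia5 (0.86), Cyp2c50 like Cib2 (0.80) and Cyp2c54 like Mief2 (0.80).

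Genes that work beside these cytochromes were counted by list. With E2 in ob/ob liver, 9.81% of all 13433 genes were higher and 22.1% changed in either direction. No list was tested as a set, so the genes named below do not speak for their lists. Of the other 5 Cyp2c genes, 3 were tested (Cyp2c38, Cyp2c39 and Cyp2c55) and 0 passed in any comparison within a model, and Cyp2c65 and Cyp2c66 had almost no counts. Of 5 electron donors, 1 fell with E2 in ob/ob liver, and this was Por itself, the P450 reductase. Por had 164 to 211 CPM there, against 226 to 323 CPM with vehicle (log2 fold change -0.54, SE 0.17, adjusted p = 0.0398). In DIO liver with PaPE-1 Por had 681 to 1069 CPM, against 465 to 490 CPM with vehicle (0.96, SE 0.19, adjusted p = 0.0707). Of 11 nuclear receptors and factors that act on Cyp2c genes, 2 rose with E2 in ob/ob liver and 0 fell. These were Nr1i3, which encodes CAR (1.30, SE 0.25, adjusted p = 0.00925), and Esr1, which encodes estrogen receptor α (0.75, SE 0.22, adjusted p = 0.0275). Of 6 bile acid genes beside Cyp2c70, 2 rose with E2 in ob/ob liver, Cyp8b1 (0.88, adjusted p = 0.00465) and Cyp27a1 (0.71, adjusted p = 0.0184), which work on the route to cholic acid and on the acidic route. Of 9 genes of heme synthesis and breakdown, Ppox and Uros rose and Cpox fell, and of 9 other cytochromes that use arachidonic acid Cyp4f14 rose and Cyp4a12a fell. Of the 2 epoxide hydrolases tested, 0 passed. With either ligand against vehicle in DIO liver, and with PaPE-1 against vehicle in ob/ob liver, 0 genes of these 7 lists passed.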

How the data were processed

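Liver RNA was read in 18 libraries. The authors aligned reads to GRCm39 with STAR 2.7.6a and deposited raw counts per gene, and gene lengths, from featureCounts 2.0.0, counting on the reverse strand without multi-mapped reads. The deposited DESeq2 columns (fold changes and p-values of the authors' comparisons) were not used. Counts were tested per model with edgeR 4.0.16 (robust quasi-likelihood, TMM, filterByExpr; R 4.3.3) over 9 libraries, and interactions over 18, with Benjamini-Hochberg adjustment over all genes and a threshold of 0.05. Alternatives were DESeq2 1.42.0, its size factors, limma 3.58.1 voom, other filters, the compared groups alone, the gene length trend removed and each library left out. The code was tested on simulated data. Intervals are at 95%. Total counts were 10470665 to 21703791 per library. Identity and shared windows came from GENCODE transcripts of GRCm38 and promoters from RefSeq GRCm38.p6, while gene positions are those of the deposited tables. All 10 members are named, with up to 3 genes per context list by adjusted p and the 1 gene most alike. Members and lists were chosen with earlier results of these data known.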

Additional observations from a re-analysis of the deposited data

Results flagged for a closer look

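The effect of E2 on Cyp2c40 differed between DIO and ob/ob liver by the test of the interaction, at -3.27 on the log2 scale (SE 0.44, adjusted p = 0.0207 with edgeR over 18 libraries). In DIO liver the log2 fold change with E2 was 0.64, with 3 of 3 E2 libraries above all vehicle libraries, and in ob/ob liver it was 3.92, also with 3 of 3. Mean levels were 234 CPM with vehicle and 364 CPM with E2 in DIO liver, and 10.8 and 166 CPM in ob/ob liver. The interaction compares ratios, not rises in CPM.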

How the results depend on the processing

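The counts of members called in ob/ob liver with E2 against vehicle, with PaPE-1 against E2 and with PaPE-1 against vehicle stayed within 1.5 times under the settings other than leaving out 1 library. The cause of the changes below was not tested. For PaPE-1 against vehicle in DIO liver the count was 0, with 0 of all genes called. It was 5 with DESeq2 (757 of all genes), 1 without a filter (385) and 3 with the 2 compared groups alone (773). When 1 library was left out it was 0 to 1 (0 to 611 of all genes). For E2 against vehicle in DIO liver it was 0 to 1 when 1 library was left out (0 to 133 of all genes). For PaPE-1 against E2 in DIO liver it was 1 (5 of all genes), and it was 3 with DESeq2 (225 of all genes) and 2 without a filter (56). It was 0 with limma voom (0 of all genes), with the length trend removed (1) or with the compared groups alone (2). When 1 library was left out it was 0 to 4 (0 to 796 of all genes). For the interaction of E2 it was 1 (2 of all genes), and it was 2 with DESeq2 (338 of all genes). When 1 library was left out it was 0 to 1 (0 to 831 of all genes).

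Log2 fold changes changed sign only for values that did not pass the test. With limma voom these were Cyp2c50 (-0.15) and Cyp2c54 (-0.25) for PaPE-1 against vehicle, Cyp2c50 for E2 against vehicle (0.085) and for PaPE-1 against E2 (-0.23) in ob/ob liver, and Cyp2c40 (0.013) and Cyp2c69 (0.017) for the interaction of PaPE-1. With the length trend removed they were Cyp2c23 (0.016) and Cyp2c67 (0.16) for PaPE-1 against E2 in ob/ob liver and Cyp2c67 (0.020) for the interaction of E2, and with at least 10 counts in every library Cyp2c23 (-0.0095) for that interaction. When 1 library was left out, values with a change of sign ranged as follows. PaPE-1 against vehicle in ob/ob liver gave Cyp2c23 -0.010 to 0.40, Cyp2c29 -0.087 to 0.70, Cyp2c37 -0.97 to 0.83, Cyp2c40 -0.23 to 0.77, Cyp2c50 -0.36 to 0.47, Cyp2c54 -0.20 to 1.002, Cyp2c68 -0.16 to 0.090, Cyp2c69 -0.17 to 1.15, Cyp2c70 -0.47 to 0.089. E2 against vehicle in ob/ob liver gave Cyp2c50 -0.36 to 0.41, and PaPE-1 against E2 gave Cyp2c23 -0.21 to 0.059, Cyp2c50 -0.31 to 0.51, Cyp2c67 -0.13 to 0.10. The interaction of PaPE-1 gave Cyp2c29 -0.35 to 0.41, Cyp2c40 -0.54 to 0.43, Cyp2c69 -0.74 to 0.58, and that of E2 gave Cyp2c23 -0.26 to 0.19, Cyp2c54 -0.047 to 0.64, Cyp2c67 -0.20 to 0.0030.

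No paired analysis was possible because the replicate numbers only name the libraries and no label ties libraries of different groups. Cyp2c54 and Cyp2c69 rest on as few as 9 and 17 counts in an ob/ob library, which limits their fold changes, and near-identical sequence limits those of Cyp2c40, Cyp2c67, Cyp2c68 and Cyp2c69.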
